A study of Mus musculus with 6 samples.

Results

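The genes described here are the ligands and receptors of the 4 classical axon guidance systems: ephrins with their Eph receptors, semaphorins with their plexin and neuropilin receptors, Slits with their Robo receptors, and netrins with the receptors Dcc and Unc5. They were chosen by gene symbol among protein-coding entries of the deposited expression table, and 68 of its 54429 genes met the rule, 34 ligands and 34 receptors in 11 families on 19 chromosomes. The rule used names only and no measured value, though it was chosen with earlier results of these data known.

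Guidance cues are secreted or membrane-bound proteins that steer the growing tip of an axon by attraction or repulsion, and each acts through receptors on that tip. In the visual system, graded ephrins and Eph receptors order the map from retina to brain. In the adult cortex members of these families also act at synapses, on blood vessels and in glia, and Eph receptors signal into the cell while ephrins can signal back into the cell that carries them.

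Total RNA was sequenced from the V1 cortex, the primary visual area, of female C57BL mice aged 9 weeks, each injected there with adeno-associated virus (AAV), a vector that delivers genes to brain cells. There were 3 groups of 2 libraries. In the shCSB/shNDN group the virus carried short hairpin RNAs named for CSB and necdin, in the shCSB group a hairpin named for CSB, and in the shControl group a control hairpin, so every animal had received AAV and none was uninjected. CSB is the product of Ercc6 and acts in transcription-coupled DNA repair, and its loss causes Cockayne syndrome. Necdin is the product of Ndn, and the series title presents its hyperactivation as a marker of the neurological disease. The design text gives a pair of mice per genotype, and the libraries of a group were taken as separate animals. The cell types that the virus reached are not given in the sources used here, and the dissected tissue holds every cell type of the injected area. In such bulk tissue, fewer cells of a type and less RNA per cell cannot be told apart.

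Facts of the whole series bear on every value below. The libraries held 15731788 to 17365285 reads. Ercc6 stood at 1.61 and 1.81 FPKM in the libraries labelled shCSB/shNDN, 1.29 and 1.61 FPKM in those labelled shCSB, and 1.46 and 1.22 FPKM in shControl, so the targeted gene shows no loss and directions rest on labels that it does not bear out. FPKM, fragments per kilobase of gene scaled to sequencing depth, is the deposited unit. Ndn stood at 16.8 and 41.0 FPKM in the libraries labelled shCSB/shNDN, 47.9 and 38.1 FPKM in those labelled shCSB, and 56.1 and 49.8 FPKM in shControl. The second shCSB/shNDN library is therefore within the range of the libraries labelled shCSB for Ndn. This library also stood apart in its RNA, with 1.41% of its reads from mitochondrial genes where the others had 4.95% to 7.65%. It held 435 genes with exactly 1 read, where the others held 1597 to 1839. The first shCSB/shNDN library stood apart in microglia, the resident immune cells of the brain: 12 microglia marker genes summed to 2902 and 793 FPKM in the libraries labelled shCSB/shNDN, 327 and 375 FPKM in those labelled shCSB, and 268 and 257 FPKM in shControl, and none of the 12 was at 0 in a library. The part of these cells in the values below was not tested. The 16 markers of excitatory neurons were above 0 in every library, at summed levels between 2607 and 3633 FPKM, most of it from Nrgn, a neuronal calmodulin-binding protein. Of 10 markers of hippocampus, striatum and thalamus, 2 had both shCSB/shNDN libraries below both shControl libraries, against 23.7% of the genes tested. For another 2 both lay above, against 20.7%. Of the lower ones, Spink8 had 0.642 and 0 FPKM in shCSB/shNDN, 7.36 and 0.137 FPKM in shCSB, and 11.8 and 6.36 FPKM in shControl. Of the higher ones, Prkcd had 6.42 and 2.62 FPKM in shCSB/shNDN, 1.53 and 1.57 FPKM in shCSB, and 1.46 and 1.79 FPKM in shControl. Whether the dissected areas differed was not tested.

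The members' own level was modest and concentrated in few genes. Their reads came to 51582 and 47645 in the libraries labelled shCSB/shNDN, 49222 and 50264 in those labelled shCSB, and 49813 and 49205 in shControl, between 0.289% and 0.313% of a library. Their summed FPKM was 562 and 519 in the libraries labelled shCSB/shNDN, 580 and 532 in those labelled shCSB, and 597 and 659 in shControl. The 8 highest members took between 55.2% and 63.8% of that sum. In shControl 57 of the 68 members had a mean of at least 1 FPKM, 12 had at least 10 FPKM and 3 at least 50 FPKM. Sema7a, a membrane-anchored semaphorin that binds plexin-C1 and integrins, led in every library, at 96.6 and 69.8 FPKM in the libraries labelled shCSB/shNDN, 88.2 and 72.5 FPKM in those labelled shCSB, and 77.3 and 131 FPKM in shControl. The shControl libraries bracket the other 4 except the second shCSB/shNDN and the second shCSB library, which lie below both. Next in shControl came the kinase-inactive receptor Ephb6, the transmembrane semaphorin Sema6b and the netrin receptor Unc5a, and neighbours in that order do not separate beyond their spread for Ephb6 (65.9 and 83.2 FPKM) and Sema6b (70.5 and 67.6 FPKM), while Unc5a lay below both (46.9 and 46.0 FPKM). Dcc, the attractive netrin receptor, was the lowest member in shControl, at 0.00761 and 0.0249 FPKM there.

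**Figure D1:**
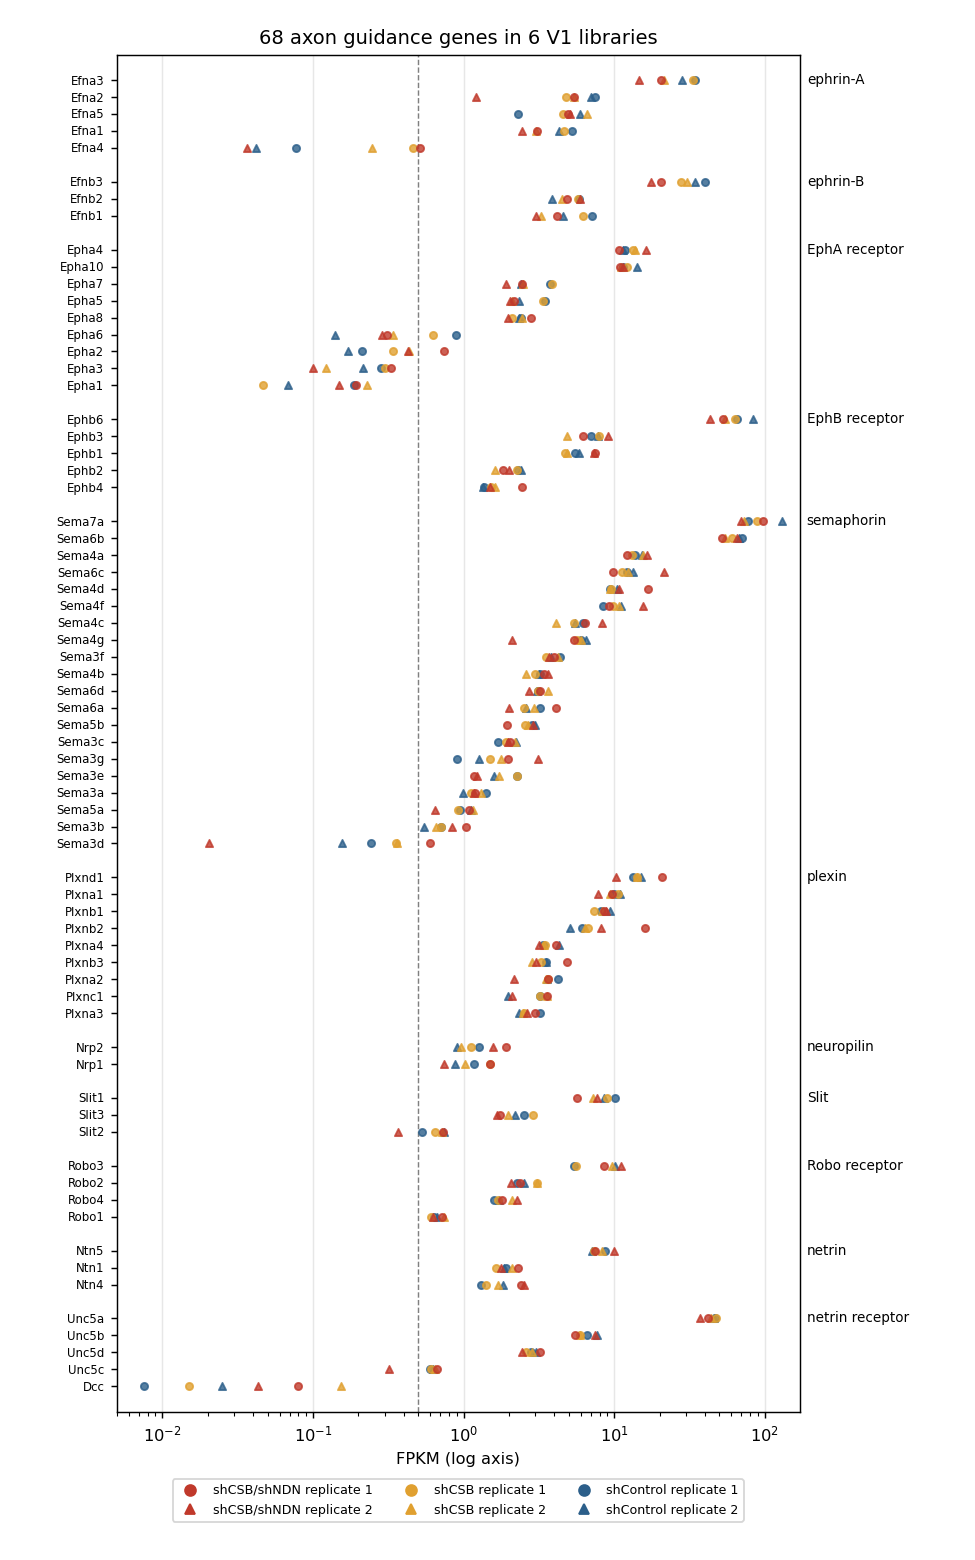
Level of each of the 68 genes in FPKM (x axis, log scale) in the 6 libraries, ordered by family and mean. Red points are shCSB/shNDN, orange shCSB and blue shControl, circles replicate 1 and triangles replicate 2, and the dashed line marks 0.5 FPKM. Sema7a, Ephb6, Sema6b and Unc5a lie to the right of the others and Dcc to the left.

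Promoter sequence is shown for 5 members on which the results below turn. Their share of G and C was computed for these 5 only. The sequences are the bases just upstream of the gene start, 5′ to 3′ on the gene's strand, from RefSeq on GRCm38.p6, and capitals mark each GC box, the letters GGGCGG on either strand. Efna2 lies at chr10:80179232-80179481 (plus strand), Efna3 at chr3:89322966-89323189 (minus strand), Ephb6 at chr6:41605261-41605481 (plus strand), Plxnb2 at chr15:89180789-89181038 (minus strand) and Sema3g at chr14:31217623-31217859 (plus strand).
Efna2: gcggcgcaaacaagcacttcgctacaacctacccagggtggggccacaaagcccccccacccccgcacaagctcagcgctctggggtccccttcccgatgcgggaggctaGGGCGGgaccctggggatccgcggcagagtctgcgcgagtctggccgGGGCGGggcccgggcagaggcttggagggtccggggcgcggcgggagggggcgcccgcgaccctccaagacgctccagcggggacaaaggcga
Efna3: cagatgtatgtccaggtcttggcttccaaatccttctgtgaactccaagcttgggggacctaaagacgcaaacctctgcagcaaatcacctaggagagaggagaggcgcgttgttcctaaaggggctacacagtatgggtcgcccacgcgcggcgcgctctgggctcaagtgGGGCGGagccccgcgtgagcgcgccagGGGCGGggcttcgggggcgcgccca
Ephb6: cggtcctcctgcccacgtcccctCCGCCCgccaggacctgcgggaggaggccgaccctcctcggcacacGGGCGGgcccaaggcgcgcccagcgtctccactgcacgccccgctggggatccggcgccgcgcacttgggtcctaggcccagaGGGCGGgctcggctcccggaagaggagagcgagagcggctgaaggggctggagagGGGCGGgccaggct
Plxnb2: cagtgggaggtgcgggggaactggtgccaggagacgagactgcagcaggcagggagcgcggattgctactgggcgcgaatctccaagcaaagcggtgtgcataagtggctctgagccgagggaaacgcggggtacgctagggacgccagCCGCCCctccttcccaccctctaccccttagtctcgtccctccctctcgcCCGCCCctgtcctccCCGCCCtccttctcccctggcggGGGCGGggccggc
Sema3g: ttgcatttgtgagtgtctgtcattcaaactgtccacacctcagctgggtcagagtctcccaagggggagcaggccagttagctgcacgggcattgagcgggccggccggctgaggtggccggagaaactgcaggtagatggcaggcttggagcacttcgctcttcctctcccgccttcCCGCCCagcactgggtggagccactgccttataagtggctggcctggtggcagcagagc

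These sequences are rich in G and C, from 61.6% in Sema3g to 76.5% in Ephb6, and hold 2 GC boxes in Efna2, 2 in Efna3, 4 in Ephb6, 4 in Plxnb2 and 1 in Sema3g. A RefSeq promoter window was found for 58 of the 68 members, 74 windows in all, and motifs were counted in the 250 bases upstream in each. The sequence printed for Efna3, Ephb6 and Sema3g is shorter, at 224, 221 and 237 bases, because it stops at the gene start of the deposited table. A GC box on either strand was in 70.3% of the 74 windows and in 32.7% of all 32851 windows of that length in the table. The E-box CACGTG was in 5.41% of member windows and 6.02% of all, and the letters TATAAA in 2.70% of member windows and 12.4% of all. The cyclic AMP response element TGACGTCA was in 1.35% of member windows and 1.55% of all. These are matches of letters, and no binding was measured here. Efnb3, the ephrin with the smallest p below, is not among the windows used.

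Changes were tested with limma on log2(FPKM + 1), a fit of group means across all genes in which a gene's spread is shrunk toward that of genes of similar level, with two-sided p values adjusted by Benjamini-Hochberg over the 16254 genes with at least 0.5 FPKM in at least 2 libraries. Fold changes on this scale understate those of low genes. Of the 68 members 62 were tested, 32 ligands and 30 receptors. Dcc, Efna4, Epha1, Epha2, Epha3 and Sema3d did not reach the level required. At an adjusted p below 0.05, 0 of 62 members passed in any comparison, which does not show that they did not differ. The share of all genes that passed was 0% for shCSB against shControl, 0% for shCSB/shNDN against shCSB, and 0.00615% for shCSB/shNDN against shControl and for the F test over the 3 groups. limma-voom on reads recovered from the FPKM values, of which 100% were whole within 0.01, also called 0 members in each, and among all genes it called 6 (0.0369%) for shCSB/shNDN against shControl and 0 (0%) elsewhere. The count rests on both shCSB/shNDN libraries, since it rose above 0 only in fits without 1 of them. In these fits the lone library is assumed to vary like the other groups, and many genes that are not members passed too. Only effect sizes are therefore given from them below.

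Comparing shCSB/shNDN with shControl takes both hairpins together against the control hairpin. Of 7 tested ephrins, 2 had a fitted change above 0 and 5 (71.4%) had both shCSB/shNDN libraries below both shControl libraries, against 23.7% of all genes tested. Smaller families also lay on one side of 0, with 0 of 4 netrin receptors and 0 of 3 Slits above it and 3 of 3 netrins and 2 of 2 neuropilins. The median log2 change of the ephrins was −0.63, against −0.02 over all 62 members and −0.01 over all genes tested. Summed over the 8 ephrins, the level was 63.7 and 49.9 FPKM in the libraries labelled shCSB/shNDN, 87.6 and 74.8 FPKM in those labelled shCSB, and 103 and 88.1 FPKM in shControl. Both shCSB/shNDN libraries lie below the other 4 for this sum, most of which comes from Efnb3 and Efna3.

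Markers of excitatory neurons leaned lower in this group, with a median log2 change of −0.23 and 4 of 16 changes above 0. Of 16 markers, 7 had both shCSB/shNDN libraries below both shControl libraries, against 23.7% of all genes tested, and 1 had both above, against 20.7%. At an unadjusted p below 0.05 by limma 4 lay lower, against 6.71% of all genes, and 0 passed the adjusted threshold. Slc17a7, the vesicular glutamate transporter of cortical neurons, had 313 and 206 FPKM in the libraries labelled shCSB/shNDN, 357 and 294 FPKM in those labelled shCSB, and 406 and 420 FPKM in shControl. All 16 markers summed to 2607 and 3444 FPKM in shCSB/shNDN, 3162 and 2929 FPKM in shCSB, and 3247 and 3633 FPKM in shControl. These sums overlapped. Without Nrgn, the most abundant of them, the markers summed to 858 and 611 FPKM in the libraries labelled shCSB/shNDN, 923 and 898 FPKM in those labelled shCSB, and 1013 and 1100.5 FPKM in shControl. Most of that remainder came from Slc17a7 and Camk2a. The part of these markers in the ephrin values was not tested. Of 10 markers of inhibitory neurons, 1 had a fitted change above 0, with a median log2 change of −0.19. For 4 of these 10 both shCSB/shNDN libraries lay below both shControl libraries, against 23.7% of all genes tested. Their sums overlapped, at 677 and 1316 FPKM in shCSB/shNDN and 1113 and 1095 FPKM in shControl. The part of inhibitory markers was not tested either.

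Efnb3 encodes ephrin-B3, a transmembrane ephrin that forms a midline barrier to corticospinal axons and is held by neurons. It had 20.3 and 17.5 FPKM in the libraries labelled shCSB/shNDN, 27.6 and 30.4 FPKM in those labelled shCSB, and 40.2 and 34.4 FPKM in shControl. The 3 pairs do not overlap, with shControl highest and shCSB/shNDN lowest. For shCSB/shNDN against shControl the log2 change was −0.94 ± 0.18 (SE; 95% interval −1.37 to −0.52), with an unadjusted p of 0.0014 and an adjusted p of 0.185 from limma, and with 1 shCSB/shNDN library alone it was −0.84 for the first and −1.04 for the second. Each of these fits rests on a single shCSB/shNDN library.

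Efna3 encodes ephrin-A3, which is anchored to the membrane by a lipid and is also made by astrocytes. It had 20.4 and 14.6 FPKM in the libraries labelled shCSB/shNDN, 33.6 and 21.3 FPKM in those labelled shCSB, and 34.5 and 28.1 FPKM in shControl. Both shCSB/shNDN libraries lie below the other 4, while the second shCSB library is within 1 FPKM of the first shCSB/shNDN library. The log2 change against shControl was −0.81 ± 0.27 (SE), with an adjusted p of 0.321 by limma. Of 10 astrocyte markers 8 had a fitted change above 0 for this comparison, with a median log2 change of 0.15. The 10 together summed to 522 and 452 FPKM in shCSB/shNDN, 525 and 676 FPKM in shCSB, and 612 and 655 FPKM in shControl. Aldoc, a glycolytic enzyme and the most abundant of them, lay lower, with a log2 change of −0.83 ± 0.25 (SE). Without Aldoc, the markers summed to 253 and 257 FPKM in the libraries labelled shCSB/shNDN, 213 and 307 FPKM in those labelled shCSB, and 224 and 224 FPKM in shControl, and their part in the Efna3 value was not tested.

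Efna1, whose product ephrin-A1 is best known from blood vessels, lies 32.8 kb from Efna3 on chromosome 3 on the same strand. It had 3.07 and 2.43 FPKM in the libraries labelled shCSB/shNDN, 4.67 and 3.04 FPKM in those labelled shCSB, and 5.27 and 4.32 FPKM in shControl. Its log2 change against shControl was −0.63 ± 0.22 (SE; limma adjusted p = 0.328), with the second shCSB library inside the shCSB/shNDN range. Efna4, 10.4 kb further along, stayed below the level tested, at 0.513 and 0.0365 FPKM in the libraries labelled shCSB/shNDN, 0.458 and 0.246 FPKM in those labelled shCSB, and 0.0768 and 0.0419 FPKM in shControl.

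Efna2, another lipid-anchored ephrin, depended on 1 library. It had 5.42 and 1.21 FPKM in the libraries labelled shCSB/shNDN, 4.76 and 5.43 FPKM in those labelled shCSB, and 7.41 and 6.98 FPKM in shControl. The first shCSB/shNDN library is within the range of shCSB, and the second is far below all others. The log2 change against shControl was −1.12 ± 0.46 (SE; limma adjusted p = 0.367), −0.35 with the first shCSB/shNDN library alone and −1.89 with the second. Efnb1, a transmembrane ephrin, had 4.18 and 3.03 FPKM in the libraries labelled shCSB/shNDN, 6.21 and 3.27 FPKM in those labelled shCSB, and 7.12 and 4.56 FPKM in shControl, so both shCSB/shNDN libraries lie below both shControl libraries while the shCSB libraries span both groups. The groups overlapped for Efnb2, a transmembrane ephrin also held by arteries, between 3.85 and 5.91 FPKM, and for Efna5, a lipid-anchored ephrin, between 2.30 and 6.58 FPKM.

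**Figure D2:**
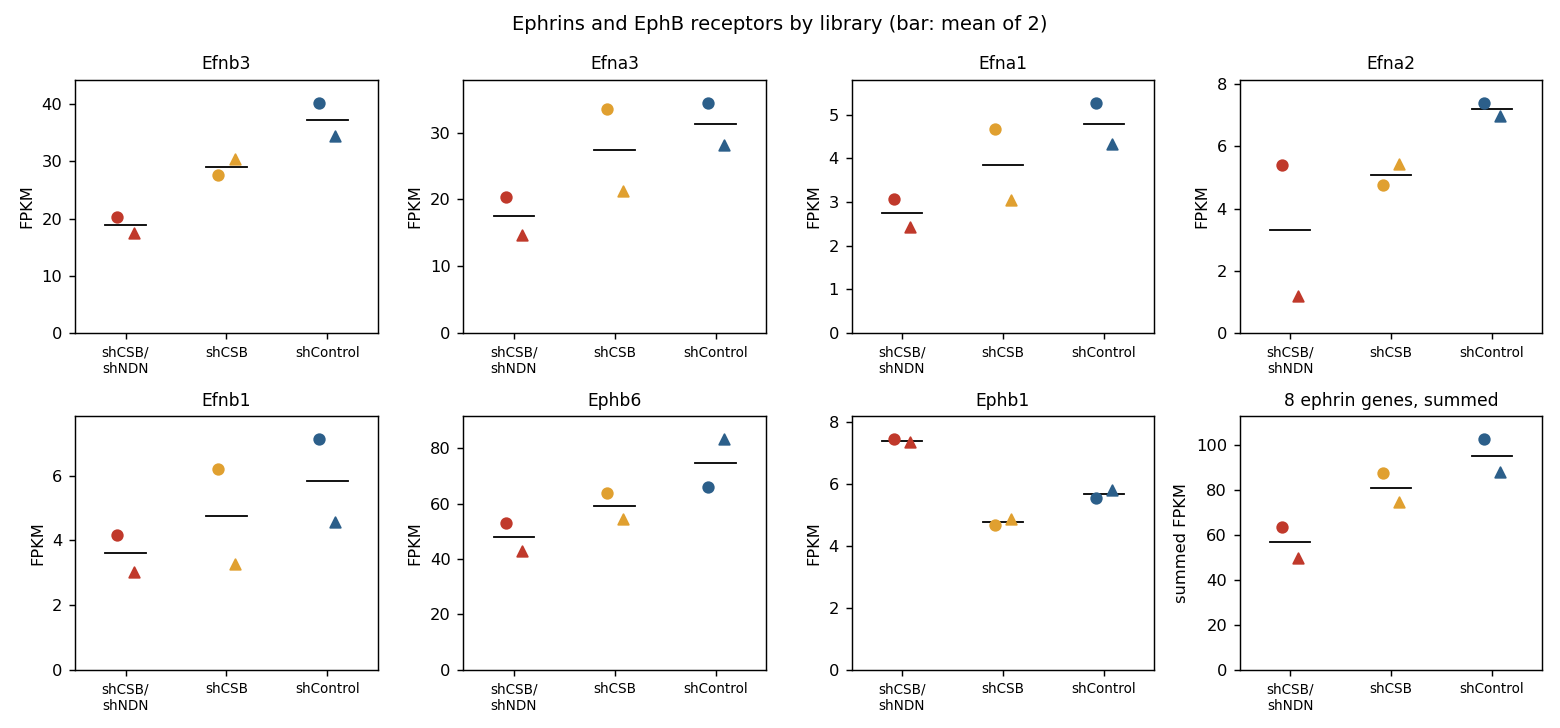
Level in FPKM (linear y axes from 0) of 5 ephrin genes, Ephb6, Ephb1 and the sum of the 8 ephrins, with shCSB/shNDN left, shCSB in the middle and shControl right. Circles are replicate 1, triangles replicate 2 and bars the mean of 2 libraries. For Efnb3 the 3 pairs do not overlap, with 20.3 and 17.5 FPKM in shCSB/shNDN and 40.2 and 34.4 FPKM in shControl.

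Among the 14 Eph receptors, the summed level was 102 and 97.5 FPKM in the libraries labelled shCSB/shNDN, 116 and 100.1 FPKM in those labelled shCSB, and 116 and 134 FPKM in shControl, and 11 receptors were tested. Ephb6, which binds ephrin-B proteins but lacks kinase activity, is the largest part of this sum. It had 53.1 and 43.0 FPKM in the libraries labelled shCSB/shNDN, 63.7 and 54.3 FPKM in those labelled shCSB, and 65.9 and 83.2 FPKM in shControl. The 3 pairs do not overlap, and the log2 change of shCSB/shNDN against shControl was −0.62 ± 0.21 (SE; limma adjusted p = 0.321).

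Ephb1, a receptor of ephrin-B that directs retinal axons at the optic chiasm, lay the other way. It had 7.43 and 7.35 FPKM in the libraries labelled shCSB/shNDN, 4.68 and 4.87 FPKM in those labelled shCSB, and 5.53 and 5.80 FPKM in shControl. The pairs are tight and do not overlap, with shCSB lowest. The log2 change was 0.33 ± 0.15 for shCSB/shNDN against shControl (SE; limma adjusted p = 0.385) and 0.54 ± 0.15 for shCSB/shNDN against shCSB (unadjusted p = 0.00883, adjusted p = 0.475), the smallest p among members against shCSB.

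The EphA receptors summed to 30.5 and 34.6 FPKM in the libraries labelled shCSB/shNDN, 36.3 and 32.8 FPKM in those labelled shCSB, and 34.3 and 33.1 FPKM in shControl, and these groups overlap. Epha4, a receptor of both ephrin types and the highest EphA receptor in several libraries, had 10.7 and 16.3 FPKM in the libraries labelled shCSB/shNDN, 13.4 and 13.7 FPKM in those labelled shCSB, and 11.7 and 11.4 FPKM in shControl. The shCSB/shNDN libraries bracket the other 4. Epha10, also kinase-inactive, stayed between 10.9 and 14.1 FPKM in all 6 libraries. The other tested EphA receptors were lower, with Epha8 between 1.98 and 2.81 FPKM. Epha5 had 2.15 and 2.04 FPKM in the libraries labelled shCSB/shNDN, 3.39 and 2.10 FPKM in those labelled shCSB, and 3.49 and 2.33 FPKM in shControl, both shCSB/shNDN values below shControl. Epha7 had 2.45 and 1.92 FPKM in the libraries labelled shCSB/shNDN, 3.88 and 2.49 FPKM in those labelled shCSB, and 3.73 and 2.40 FPKM in shControl, both shCSB/shNDN values below shCSB. Epha6 had 0.310 and 0.287 FPKM in the libraries labelled shCSB/shNDN, 0.623 and 0.340 FPKM in those labelled shCSB, and 0.894 and 0.139 FPKM in shControl, also below shCSB in both shCSB/shNDN libraries while shControl spans all the others. Among the other EphB receptors, Ephb3 lay between 4.87 and 9.04 FPKM with all groups overlapping. Ephb2 had 1.84 and 1.99 FPKM in the libraries labelled shCSB/shNDN, 2.28 and 1.62 FPKM in those labelled shCSB, and 2.31 and 2.41 FPKM in shControl. Ephb4, the venous receptor of ephrin-B2, had 2.42 and 1.499 FPKM in the libraries labelled shCSB/shNDN, 1.53 and 1.62 FPKM in those labelled shCSB, and 1.36 and 1.34 FPKM in shControl, so shControl was the lowest pair. Epha1, Epha2 and Epha3 stayed between 0.0466 and 0.740 FPKM.

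The 20 semaphorins summed to 234 and 234 FPKM in the libraries labelled shCSB/shNDN, 227 and 211 FPKM in those labelled shCSB, and 229 and 284 FPKM in shControl, and 19 were tested. Sema3g, a secreted semaphorin that binds neuropilins and is known from blood vessel endothelium, had the smallest p among members that lay higher against shControl. It had 1.96 and 3.14 FPKM in the libraries labelled shCSB/shNDN, 1.51 and 1.77 FPKM in those labelled shCSB, and 0.906 and 1.27 FPKM in shControl. The 3 pairs do not overlap. The log2 change of shCSB/shNDN against shControl was 0.75 ± 0.22 (SE; 95% interval 0.21 to 1.29; limma unadjusted p = 0.0137, adjusted p = 0.299). It was 0.51 with the first shCSB/shNDN library alone and 0.99 with the second.

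The 12 endothelial markers had no common order. Their sum was 132 and 184 FPKM in the libraries labelled shCSB/shNDN, 133 and 146 FPKM in those labelled shCSB, and 137 and 142 FPKM in shControl, and without Cldn5, a tight junction protein, it was 76.5 and 51.0 FPKM in the libraries labelled shCSB/shNDN, 64.2 and 82.9 FPKM in those labelled shCSB, and 73.4 and 74.1 FPKM in shControl. In the second shCSB/shNDN library 3 of the 12 were at their highest and 5 at their lowest. Markers of meninges and fibroblasts (12 genes) summed to 28.0 and 24.3 FPKM in shCSB/shNDN and 17.1 and 12.1 FPKM in shControl. In shCSB they summed to 35.2 and 30.3 FPKM. Of the 11 tested, 10 had both shCSB/shNDN libraries above both shControl libraries, against 20.7% of all genes tested, and 0 passed the adjusted threshold. The part of either list in the Sema3g value was not tested. Other semaphorins stood apart in a single shCSB/shNDN library. Sema6c, a transmembrane ligand of plexin-A proteins, had 9.89 and 21.4 FPKM in the libraries labelled shCSB/shNDN, 11.3 and 12.4 FPKM in those labelled shCSB, and 12.1 and 13.4 FPKM in shControl. Sema4g had 5.41 and 2.09 FPKM in the libraries labelled shCSB/shNDN, 5.68 and 5.997 FPKM in those labelled shCSB, and 6.01 and 6.46 FPKM in shControl. Against shControl the log2 change of Sema6c was −0.34 with the first shCSB/shNDN library alone and 0.70 with the second. That of Sema4g was −0.17 with the first alone and −1.23 with the second.

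Sema4d, a transmembrane ligand of plexin-B proteins found on oligodendrocytes and immune cells, had 16.7 and 10.8 FPKM in the libraries labelled shCSB/shNDN, 9.52 and 9.34 FPKM in those labelled shCSB, and 9.32 and 10.5 FPKM in shControl. Only the first shCSB/shNDN library stands well above the others. Sema4c had 6.38 and 8.31 FPKM in the libraries labelled shCSB/shNDN, 5.44 and 4.10 FPKM in those labelled shCSB, and 6.24 and 5.50 FPKM in shControl, so its shCSB libraries are the lowest pair. Sema3e, a ligand of plexin-D1, had 1.17 and 1.23 FPKM in the libraries labelled shCSB/shNDN, 2.27 and 1.71 FPKM in those labelled shCSB, and 2.27 and 1.59 FPKM in shControl, with both shCSB/shNDN libraries below the other 4.

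Sema6b, which binds plexin-A proteins, had 52.0 and 65.2 FPKM in the libraries labelled shCSB/shNDN, 60.8 and 54.6 FPKM in those labelled shCSB, and 70.5 and 67.6 FPKM in shControl, so shControl was the highest pair and the others overlap. Sema4b, another class 4 semaphorin, had 3.45 and 3.64 FPKM in the libraries labelled shCSB/shNDN, 2.996 and 2.58 FPKM in those labelled shCSB, and 3.24 and 3.16 FPKM in shControl, with no overlap between the pairs. Sema3b, a secreted semaphorin, had 1.03 and 0.832 FPKM in the libraries labelled shCSB/shNDN, 0.703 and 0.659 FPKM in those labelled shCSB, and 0.707 and 0.547 FPKM in shControl. Both shCSB/shNDN values of Sema3b lie above the other 4. Sema4a and Sema4f lay between 8.46 and 16.5 FPKM with overlapping groups, and Sema3a, Sema3c, Sema3f, Sema5a and Sema6a between 0.647 and 4.34 FPKM. Sema5b, a transmembrane semaphorin, had 1.95 and 2.91 FPKM in the libraries labelled shCSB/shNDN, 2.56 and 2.68 FPKM in those labelled shCSB, and 2.84 and 2.999 FPKM in shControl, with shCSB below shControl. Sema6d, a ligand of plexin-A1, had 3.21 and 2.73 FPKM in the libraries labelled shCSB/shNDN, 3.13 and 3.66 FPKM in those labelled shCSB, and 3.11 and 3.06 FPKM in shControl, with shCSB above shControl. Sema3d, at 0.0204 to 0.600 FPKM, was under the level tested.

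Among the 9 plexins, the receptors of semaphorins, the sum was 74.1 and 48.2 FPKM in the libraries labelled shCSB/shNDN, 55.0 and 54.2 FPKM in those labelled shCSB, and 55.2 and 56.5 FPKM in shControl, so the shCSB/shNDN libraries bracket the rest. Plxnb2, a receptor of class 4 semaphorins that microglia and other glia also express, had 15.99 and 8.22 FPKM in the libraries labelled shCSB/shNDN, 6.66 and 6.44 FPKM in those labelled shCSB, and 6.10 and 5.10 FPKM in shControl. The 3 pairs do not overlap, and the first shCSB/shNDN library is far above the second. The log2 change of shCSB/shNDN against shControl was 0.93 ± 0.29 (SE; 95% interval 0.22 to 1.63; limma unadjusted p = 0.0174, adjusted p = 0.305). It was 1.37 with the first shCSB/shNDN library alone and 0.49 with the second.

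The first library is also the one whose microglia markers were highest. Of the 12 microglia markers 10 had an unadjusted p below 0.05 by limma and lay higher for shCSB/shNDN against shControl, against 6.71% of all genes. Of these markers 0 passed the adjusted threshold. Markers of activated and other myeloid cells summed to 1625 and 287 FPKM in the libraries labelled shCSB/shNDN, 38.6 and 40.1 FPKM in those labelled shCSB, and 21.1 and 20.5 FPKM in shControl, with 11 of the 12 tested and Itgax, Cst7 and Clec7a at 0 in some library. Their part in the Plxnb2 and Sema4d values was not tested. Plxnd1, the receptor of Sema3e, had 20.8 and 10.2 FPKM in the libraries labelled shCSB/shNDN, 14.3 and 14.3 FPKM in those labelled shCSB, and 13.3 and 15.2 FPKM in shControl, so the pair labelled shCSB/shNDN lies on both sides of the rest. The neuropilin Nrp2, a coreceptor of class 3 semaphorins, had 1.92 and 1.57 FPKM in the libraries labelled shCSB/shNDN, 1.12 and 0.958 FPKM in those labelled shCSB, and 1.27 and 0.905 FPKM in shControl, both shCSB/shNDN values above the other 4. Nrp1, the other neuropilin, lay between 0.740 and 1.504 FPKM with overlapping groups. Plxna1, a coreceptor partner of neuropilins, had 9.68 and 7.84 FPKM in the libraries labelled shCSB/shNDN, 10.6 and 9.42 FPKM in those labelled shCSB, and 9.998 and 11.01 FPKM in shControl. Plxna3 had 2.97 and 2.64 FPKM in the libraries labelled shCSB/shNDN, 2.52 and 2.47 FPKM in those labelled shCSB, and 3.20 and 2.35 FPKM in shControl, both shCSB/shNDN values above shCSB. Plxnb1, the receptor of Sema4d, had 8.53 and 8.85 FPKM in the libraries labelled shCSB/shNDN, 7.36 and 8.24 FPKM in those labelled shCSB, and 8.22 and 9.45 FPKM in shControl, again above shCSB and within shControl. Plxnb3 had 4.84 and 3.03 FPKM in the libraries labelled shCSB/shNDN, 3.27 and 2.86 FPKM in those labelled shCSB, and 3.53 and 3.52 FPKM in shControl, with shCSB below shControl. Plxnc1, the receptor of Sema7a, had 3.60 and 2.09 FPKM in the libraries labelled shCSB/shNDN, 3.232 and 3.59 FPKM in those labelled shCSB, and 3.229 and 1.98 FPKM in shControl, with shCSB above shControl by a narrow margin. Plxna2 and Plxna4 lay between 2.16 and 4.30 FPKM.

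**Figure D3:**
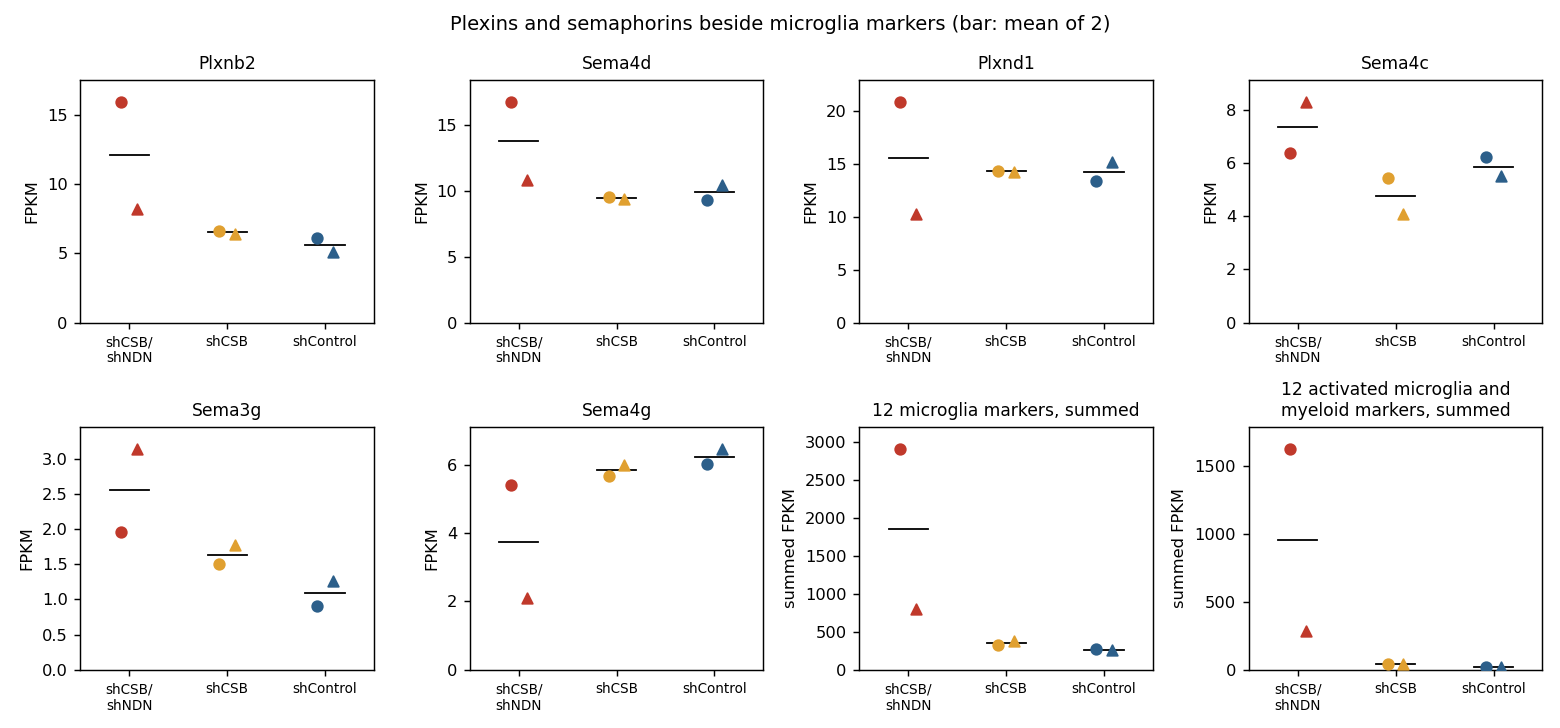
Level in FPKM (linear y axes from 0) of 6 plexin and semaphorin genes and the summed level of the microglia and myeloid markers, with shCSB/shNDN left, shCSB in the middle and shControl right. Circles are replicate 1, triangles replicate 2 and bars the mean of 2 libraries. Plxnb2 reached 15.99 FPKM in the first shCSB/shNDN library and 8.22 FPKM in the second, against 5.10 to 6.66 FPKM in the others, and both marker sums are highest in the first shCSB/shNDN library.

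Slits are secreted repellents and Robo proteins their receptors. The 3 Slits summed to 8.1 and 9.7 FPKM in the libraries labelled shCSB/shNDN, 12.5 and 9.9 FPKM in those labelled shCSB, and 13.2 and 11.5 FPKM in shControl. Slit1, the most abundant, had 5.66 and 7.64 FPKM in the libraries labelled shCSB/shNDN, 9.00 and 7.20 FPKM in those labelled shCSB, and 10.1 and 8.54 FPKM in shControl, both shCSB/shNDN values below shControl. Robo2 had 2.39 and 2.05 FPKM in the libraries labelled shCSB/shNDN, 3.06 and 3.09 FPKM in those labelled shCSB, and 2.26 and 2.53 FPKM in shControl, so shCSB was the highest pair. Robo3 varied more between replicates than between groups, with 8.51 and 11.1 FPKM in the libraries labelled shCSB/shNDN, 5.54 and 9.62 FPKM in those labelled shCSB, and 5.40 and 10.1 FPKM in shControl. Robo4, known from endothelium, had 1.81 and 2.25 FPKM in the libraries labelled shCSB/shNDN, 1.69 and 2.09 FPKM in those labelled shCSB, and 1.59 and 1.72 FPKM in shControl, so both shCSB/shNDN values exceed shControl. Slit3 had 1.76 and 1.67 FPKM in the libraries labelled shCSB/shNDN, 2.89 and 1.96 FPKM in those labelled shCSB, and 2.52 and 2.20 FPKM in shControl, with both shCSB/shNDN libraries below the other 4. Slit2 and Robo1 lay between 0.368 and 0.745 FPKM.

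Netrins attract or repel axons through Dcc and the Unc5 receptors. Ntn4, a netrin of blood vessels and basement membranes, had 2.41 and 2.51 FPKM in the libraries labelled shCSB/shNDN, 1.40 and 1.68 FPKM in those labelled shCSB, and 1.30 and 1.83 FPKM in shControl. Both shCSB/shNDN libraries lie above the other 4, and the log2 change against shControl was 0.44 ± 0.18 (SE; limma adjusted p = 0.373), or 0.29 without the first shControl library. Ntn5, the netrin with the highest mean, lay between 7.13 and 10.05 FPKM and Ntn1, the classical attractant, between 1.64 and 2.29 FPKM, both with overlapping groups. Among receptors, Unc5a had 41.7 and 36.9 FPKM in the libraries labelled shCSB/shNDN, 47.7 and 43.7 FPKM in those labelled shCSB, and 46.9 and 46.0 FPKM in shControl, with both shCSB/shNDN libraries below the other 4. Dcc was at 0.0799 and 0.0435 FPKM in the libraries labelled shCSB/shNDN, 0.0151 and 0.153 FPKM in those labelled shCSB, and 0.00761 and 0.0249 FPKM in shControl, which is 1 to 22 reads, too few for a test. Unc5b had 5.46 and 7.49 FPKM in the libraries labelled shCSB/shNDN, 5.95 and 5.96 FPKM in those labelled shCSB, and 6.63 and 7.71 FPKM in shControl, with shCSB below shControl. Unc5c lay between 0.318 and 0.661 FPKM and Unc5d between 2.46 and 3.20 FPKM.

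The members' counts were then set against all 16254 genes tested. For shCSB/shNDN against shControl, 2 of 62 members (3.23%) had an unadjusted p below 0.05 and lay higher, against 6.71% of all genes, and 5 (8.06%) lay lower, against 6.71%. Both shCSB/shNDN libraries lay above both shControl libraries for 11 members (17.7%), against 20.7% of all genes, and below for 15 (24.2%), against 23.7%. The F test over the 3 groups gave an unadjusted p below 0.05 for 4 members (6.45%), against 8.48%. limma-voom gave 10 members (16.1%) an unadjusted p below 0.05 in the comparison with shControl, against 13.9% of all genes, and 5 (8.06%) in the F test, against 8.24%.

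**Figure D4:**
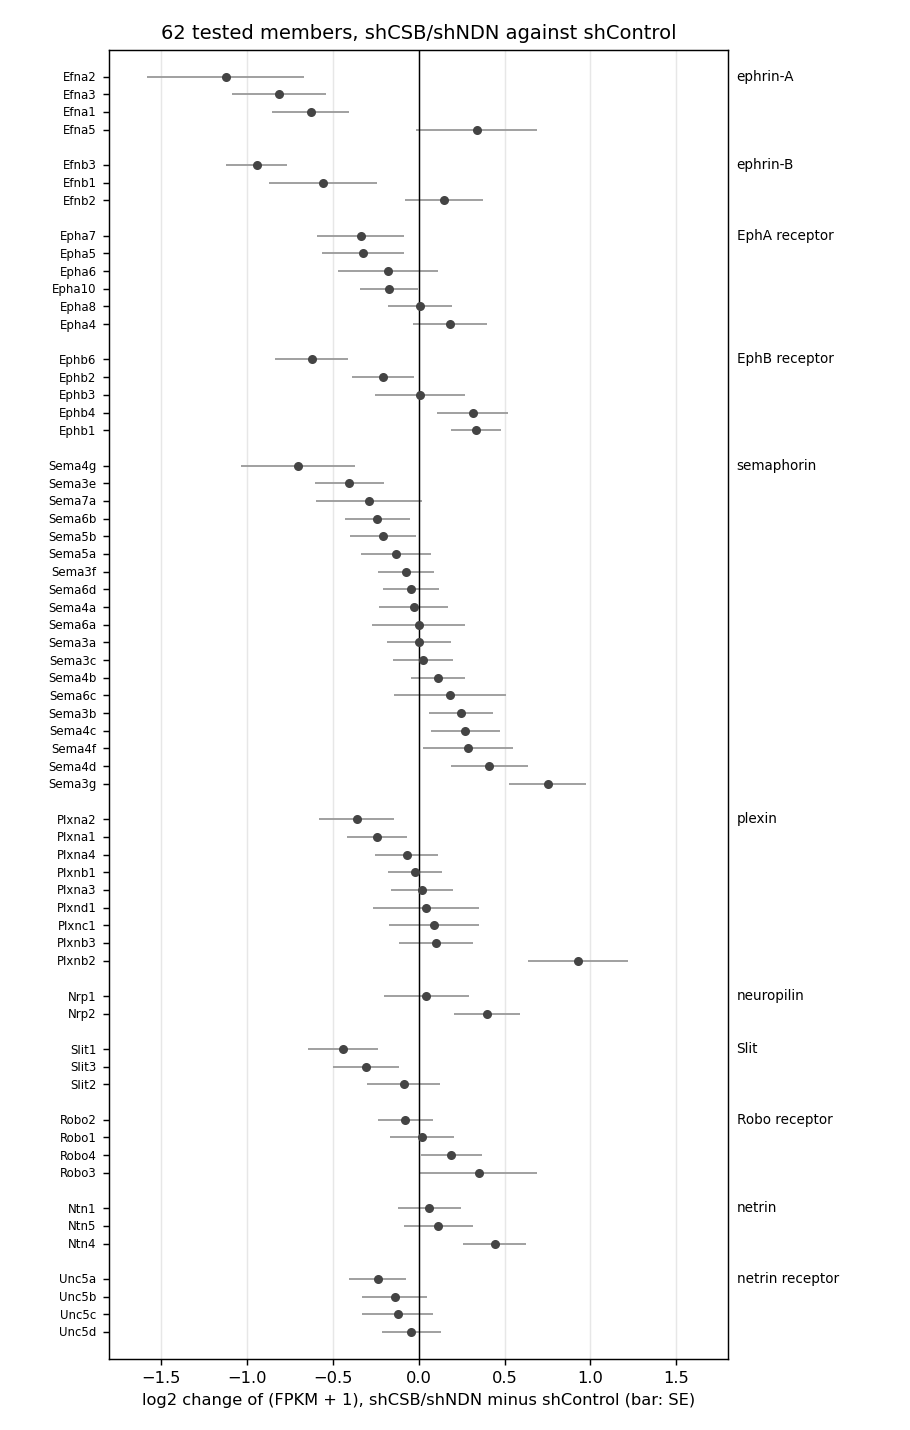
Fitted log2 change of shCSB/shNDN against shControl (x axis, on log2(FPKM + 1), positive where shCSB/shNDN is higher) for each of the 62 tested genes, grouped by family. Points are the changes and bars the SE. Of the 7 ephrins 2 lie right of 0, and Efnb3 stands at −0.94 and Plxnb2 at 0.93.

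Comparing shCSB/shNDN with shCSB takes the added necdin hairpin. An unadjusted p below 0.05 was found for 4 members that lay higher (6.45%), Ephb1, Sema4c, Plxnb2 and Ntn4, against 4.74% of all genes, and for 1 that lay lower (1.61%), Efnb3, against 3.69%. Groups did not overlap for 11 higher members (17.7%), against 16.5% of all genes, and for 10 lower (16.1%), against 18.4%. The log2 changes were 0.53 ± 0.20 for Sema4c, 0.73 ± 0.29 for Plxnb2, 0.45 ± 0.18 for Ntn4 and −0.59 ± 0.18 for Efnb3 (SE; limma adjusted p from 0.496 to 0.587). Plxnb2 was at 1.17 with the first shCSB/shNDN library alone and 0.29 with the second. Nrp2 (0.43 ± 0.19), Efna3 (−0.60 ± 0.27), Sema3e (−0.44 ± 0.20), Robo2 (−0.34 ± 0.16) and Sema4g (−0.62 ± 0.33) had adjusted p values from 0.616 to 0.667. Sema4g was at −1.15 with the second shCSB/shNDN library alone and −0.09 with the first. Efna3 was at −0.29 without the first shCSB library, −0.92 without the second, and −0.38 without the second shCSB/shNDN library. limma-voom gave 8 members (12.9%) an unadjusted p below 0.05, against 8.53% of all genes.

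Comparing shCSB with shControl takes the CSB hairpin alone. An unadjusted p below 0.05 was found for 0 members in either direction, against 1.21% of all genes higher and 0.738% lower, and limma-voom gave 1 member (1.61%), against 1.44%. Groups did not overlap for 7 higher members (11.3%), against 18.3% of all genes, and for 12 lower (19.4%), against 18.1%. The 5 members with the smallest p among those that lay lower were Efnb3 (log2 change −0.35 ± 0.18, SE), Ephb6 (−0.33 ± 0.21), Ephb1 (−0.21 ± 0.15), Sema6b (−0.26 ± 0.19) and Sema4c (−0.26 ± 0.20). Those that lay higher were Robo2 (0.27 ± 0.16), Sema3g (0.34 ± 0.22), Efna5 (0.44 ± 0.35), Plxnc1 (0.31 ± 0.26) and Epha4 (0.21 ± 0.21), all with an adjusted p of 1 by limma. Efna5 rests on the first shControl library, at 2.30 FPKM against 5.91 FPKM in the second, and without the first its change was −0.09. Other values here also turn on 1 library. Plxnc1, with 3.23 and 1.98 FPKM in shControl, was at 0.56 without the first shControl library and 0.06 without the second. Ephb6 was at −0.49 without the first shControl library, −0.16 without the second and −0.21 without the second shCSB library. Sema4c was at −0.43 without the first shCSB library and −0.09 without the second, Sema3g at 0.22 without the first shControl library and Efna5 at 0.22 without the second shCSB library.

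Replicates of shCSB/shNDN differed more than those of the other groups. The median absolute log2 difference between the replicates over the 62 members was 0.310 in shCSB/shNDN, 0.153 in shCSB and 0.182 in shControl, and over all genes tested it was 0.345 in shCSB/shNDN, 0.184 in shCSB and 0.145 in shControl. It exceeded 0.5 for 13 members in shCSB/shNDN (20.97%, against 34.3% of all genes tested), 5 in shCSB (8.06%, against 11.2%) and 6 in shControl (9.68%, against 7.89%). In shCSB/shNDN the widest were Efna2 (−1.54, second minus first), Sema4g (−1.05), Sema6c (1.04), Plxnd1 (−0.96) and Plxnb2 (−0.88).

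Downstream and accessory genes of the same pathways were read from lists of names. Of 31 further coreceptors and cues, 30 were tested and 0 passed in any comparison, and of 60 intracellular effectors 59 were tested and 0 passed. For shCSB/shNDN against shControl, 0 of the 30 coreceptors and cues lay higher and 3 lower (10%) at an unadjusted p below 0.05 by limma, and 5 of the 59 effectors lay higher (8.47%) and 4 lower (6.78%), against 6.71% of all genes in each direction. Both shCSB/shNDN libraries lay below both shControl libraries for 11 of the 30 (36.7%) and 13 of the 59 (22.0%), against 23.7% of all genes. Both lay above for 3 of the 30 and 16 of the 59, against 20.7%. Rhoa, the small GTPase through which plexins and Eph receptors act on actin, had 19.9 and 19.1 FPKM in the libraries labelled shCSB/shNDN, 13.1 and 14.5 FPKM in those labelled shCSB, and 13.8 and 13.5 FPKM in shControl, a log2 change against shControl of 0.48 ± 0.15 (SE; limma adjusted p = 0.305). Omg, a myelin protein that halts axon growth, had 47.0 and 30.03 FPKM in the libraries labelled shCSB/shNDN, 52.0 and 50.9 FPKM in those labelled shCSB, and 61.5 and 66.4 FPKM in shControl (−0.75 ± 0.24; adjusted p = 0.308). Dscaml1, an adhesion molecule of neurons, had 3.49 and 2.35 FPKM in the libraries labelled shCSB/shNDN, 4.60 and 4.995 FPKM in those labelled shCSB, and 6.13 and 5.49 FPKM in shControl (−0.81 ± 0.19; adjusted p = 0.250). Fes, a kinase of semaphorin signalling that myeloid cells express, had 5.75 and 2.11 FPKM in the libraries labelled shCSB/shNDN, 1.22 and 1.32 FPKM in those labelled shCSB, and 1.13 and 0.884 FPKM in shControl (1.19 ± 0.35; adjusted p = 0.299), beside the myeloid marker sums given above, whose part in it was not tested.

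Gene overlap limits some of these values. The counting's strand setting is not given in the sources used here, and 30 of the 68 members overlap a gene on the other strand, among them Efna3, Ephb1, Nrp2, Ntn4, Robo2, Sema3e, Sema4c, Sema4d and Unc5a, so their levels may hold reads of that gene and are uncertain. Efnb3, Efna1, Efna2, Ephb6, Plxnb2 and Sema3g have no such partner in the annotation used.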

How the data were processed

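Each library has 1 column of FPKM in the table the authors deposited. A stranded total RNA kit was used, per the labels' protocols. The submitters' processing notes name FastQC, HISAT2 2.0.4 and GRCm39, but 98.3% of shared gene positions equal GENCODE M21, so coordinates are GRCm38. The counting program and its strand setting are not given in the sources used here.

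The filter kept genes reaching 0.5 FPKM in 2 or more libraries. limma 3.58.1 (R 4.3.3) fitted log2(FPKM + 1) for the 6 libraries together, its prior spread following the mean level, and p values were two-sided and Benjamini-Hochberg adjusted, with a threshold of 0.05. Every FPKM value gave whole reads within 0.01, which limma-voom used. A count of 0 allows 3 reads, counting error only.

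The members and lists were chosen with earlier results of these data known. Genes named with a fitted change were, per comparison and direction, the 5 members with the smallest p. Levels are also given for the highest member of each family and for members whose groups do not overlap. Genes of other lists, and members called without 1 library, were chosen after their values were seen. Alternatives were other pseudocounts, filters, scalings, fits and leaving out each library.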

Additional observations from a re-analysis of the deposited data

How the results depend on the processing

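Of 67 alternative counts of members past the threshold, 61 stayed at 0. Leaving out each library in turn gave 0 to 3 members for shCSB/shNDN against shCSB, 0 to 5 for shCSB/shNDN against shControl, 0 to 2 in the F test and 0 to 0 for shCSB against shControl. All counts above 0 came from fits without 1 shCSB/shNDN library, and the cause was not tested. Of the log2 changes of named genes under alternatives, 601 kept their direction and side of the threshold, 8 passed it and 3 turned. Efna5 for shCSB against shControl was −0.0895 without the first shControl library, and 0.98 without the second. Ercc6 for the same comparison was −0.0059 without the second shControl library and −0.029 without the second shCSB library, and at most 0.16 without another. With the replicate number as a block (replicate block), 0 members passed in each comparison. Same-numbered libraries did not deviate together, with correlations of 0.054 for shCSB and shControl, −0.016 for shCSB/shNDN and shControl, and −0.071 for shCSB/shNDN and shCSB, so the numbers were not taken to pair animals. With 2 libraries a group the fit has 3 residual degrees of freedom, which limits what could pass.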
